A study of Mus musculus with 2 samples.

Results

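Mef2a, Mef2b, Mef2c and Mef2d, the 4 mouse genes of the myocyte enhancer factor 2 family, and Srf, the gene of serum response factor, were described in RNA of the embryonic mouse limb. These 5 genes were picked by symbol among the 43346 Ensembl genes of the deposited tables and not by a measured value, though earlier results of these data were known. The samples were whole limbs of healthy B6NCrl embryos at embryonic day 13.5 (E13.5), with males and females pooled, no allele or agent named, and no statement of forelimb or hindlimb. Each library was made from 10 ng of total RNA above 200 nt, and ERCC spike-ins were added. There was 1 group of 2 libraries, numbered as biological replicates 1 and 2, taken from different tissue samples under a common donor entry. Without a second group there was no comparison between conditions, and the spread between the libraries is the only error between samples available. Values with ± are the mean and SD of both libraries (n = 2). They leave out the uncertainty of the estimate within a library, for which credibility intervals were deposited.

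MEF2 proteins and SRF belong to the MADS box transcription factors, which bind DNA as dimers through a conserved amino-terminal domain. MEF2 proteins bind an A/T-rich site in muscle, cartilage, endothelial and neuronal genes, and class IIa histone deacetylases hold them inactive until kinases send those deacetylases out of the nucleus. SRF binds the CArG box of actin, muscle and growth factor responsive genes together with myocardin-related factors, which sense free actin, or with ternary complex factors, which sense MAP kinase signals. In the limb, Mef2c is known for the hypertrophy of growth plate cartilage, and Mef2 genes and Srf for differentiation of skeletal muscle. Mef2 transcripts are spliced at a pair of mutually exclusive exons, α1 and α2, directly behind the DNA-binding domain, and at a short β exon in the transactivation domain. The α2 exon is known from muscle and the β exon from striated muscle and neurons.

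The exons on which the transcripts below differ are shown first, 5′ to 3′, cut from GENCODE M21 transcripts on mm10. The exon that completes the MADS box and holds the MEF2 domain is 204 nt long in each of the 4 Mef2 genes and is shared by the leading transcripts of Mef2a, Mef2c and Mef2d. It is shown for Mef2c (chr13:83592778-83592981, + strand) with capitals at the bases that are the same in Mef2a, Mef2b, Mef2c and Mef2d.
Mef2c domain exon: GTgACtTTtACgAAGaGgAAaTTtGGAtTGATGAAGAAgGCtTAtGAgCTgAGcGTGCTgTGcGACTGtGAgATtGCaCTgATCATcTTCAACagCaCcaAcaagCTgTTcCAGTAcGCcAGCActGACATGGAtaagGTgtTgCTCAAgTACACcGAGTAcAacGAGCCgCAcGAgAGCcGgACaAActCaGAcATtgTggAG
In this exon 140 of 204 bases were the same in all 4 genes. Of the 64 that differed, 12 lay at the first codon position, 5 at the second and 47 at the third. Between pairs of genes, identity ranged from 76.0% for Mef2a and Mef2b to 85.8% for Mef2c and Mef2d.

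The α1 exons follow, at chr7:67268269-67268400 (- strand) for Mef2a, chr13:83625265-83625408 (+ strand) for Mef2c and chr3:88158034-88158171 (+ strand) for Mef2d. Capitals in Mef2a and Mef2d mark bases identical to the aligned base of Mef2c. Capitals in Mef2c mark the first 60 nt, which are an exon of their own in the transcript Mef2c-202.
Mef2a α1: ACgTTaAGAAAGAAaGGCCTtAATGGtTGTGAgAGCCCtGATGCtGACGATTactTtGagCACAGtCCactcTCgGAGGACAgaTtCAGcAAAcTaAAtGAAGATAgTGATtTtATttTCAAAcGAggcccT
Mef2c α1: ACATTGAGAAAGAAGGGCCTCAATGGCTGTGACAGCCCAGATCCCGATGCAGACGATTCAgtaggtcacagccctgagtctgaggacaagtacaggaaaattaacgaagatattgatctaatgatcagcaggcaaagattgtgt
Mef2d α1: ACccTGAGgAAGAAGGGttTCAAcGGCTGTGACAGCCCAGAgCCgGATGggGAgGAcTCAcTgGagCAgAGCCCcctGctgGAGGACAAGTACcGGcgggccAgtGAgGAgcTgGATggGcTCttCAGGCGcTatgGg
The α2 exons are shown for Mef2c (chr13:83625470-83625607, + strand) and Mef2d (chr3:88158221-88158355, + strand), with capitals at the bases that are identical in the alignment of both.
Mef2c α2: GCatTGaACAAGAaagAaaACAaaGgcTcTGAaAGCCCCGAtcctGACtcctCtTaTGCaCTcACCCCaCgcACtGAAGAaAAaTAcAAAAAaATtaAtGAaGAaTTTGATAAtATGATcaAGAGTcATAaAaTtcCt
Mef2d α2: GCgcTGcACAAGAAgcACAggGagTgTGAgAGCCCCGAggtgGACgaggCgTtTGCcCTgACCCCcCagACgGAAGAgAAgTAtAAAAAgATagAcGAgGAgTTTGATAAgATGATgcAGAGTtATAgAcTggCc
The β exons lie at chr7:67244521-67244544 (- strand) for Mef2a, chr13:83654598-83654621 (+ strand) for Mef2c and chr3:88161781-88161801 (+ strand) for Mef2d. Capitals mark bases identical to the aligned base of Mef2c and, in Mef2c, bases identical in both others.
Mef2a β: TCgGAGGAaGaGGAatTGgaGTTG
Mef2c β: tCtGAGGAtgtgGAtctgctgtTG
Mef2d β: aCTGAGGaccATtTaGATCTG
The α2 exons of Mef2c and Mef2d shared 65.2% of bases, counted over the longer exon, and their α1 exons shared 63.9%. Within a gene, α1 and α2 shared 62.5% in Mef2c and 53.6% in Mef2d. The lengths of the 9 α and β exons cut from the Mef2 genes, with the single α1-like exon of Mef2b, are multiples of 3, so that their use keeps the reading frame.

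The 5 genes spanned more than 100-fold in abundance, with Mef2c the highest and Mef2b near the floor. The measure is TPM, the deposited transcript abundance, which divides reads by transcript length and so allows levels to be set side by side between genes. Detection meant 1 TPM or more in both libraries. Mef2a, Mef2c, Mef2d and Srf were detected and Mef2b was not, that is 4 of 5, where 34.6% of all Ensembl genes were. At a threshold of 5 TPM, Srf would not have been. In whole-limb RNA, fewer cells of a type and less RNA per cell cannot be told apart, so each level is a mean over all cells of the limb.

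Mef2c, the family member known from hypertrophic cartilage and from developing muscle and endothelium, had 40.5 TPM in replicate 1 and 44.6 in replicate 2 (42.6 ± 2.91, n = 2). It was higher than 73.0% of detected genes. The deposited credibility intervals of its TPM were 38.0 to 40.9 and 42.3 to 45.0, which do not overlap, while the log2 ratio of replicate 2 over replicate 1 on depth-scaled counts was 0.13 and stayed within the spread given further on. Mef2c supplied 49.6% ± 0.113 of the summed TPM of the 4 Mef2 genes, which came to 81.6 TPM in replicate 1 and 90.2 in replicate 2. Its share of that sum was nearly the same in both libraries.

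Mef2a, a broadly expressed member with roles in muscle, had 27.2 TPM in replicate 1 and 28.9 in replicate 2 (28.1 ± 1.16, n = 2), or 32.7% ± 0.957 of the Mef2 sum. Mef2d, also broadly expressed, had 13.5 and 16.4 TPM (14.95 ± 1.99, n = 2), or 17.4% ± 1.10 of the sum. Both genes were lower than Mef2c in each library. The values of Mef2a, Mef2c and Mef2d did not overlap between genes.

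Srf had 3.38 TPM in replicate 1 and 3.30 in replicate 2 (3.34 ± 0.0566, n = 2), from 281 and 365 expected counts. Only 17.8% of detected genes had a lower mean. The intervals of its TPM, 2.91 to 3.68 and 2.92 to 3.58, overlapped almost wholly. Mef2b, which in adult mice is known from germinal centre B lymphocytes, stood at 0.32 TPM in both libraries, from 8 and 10 expected counts. Its intervals reached up to 0.706 and 0.618 TPM, under the detection threshold in both libraries.

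**Figure D1:**
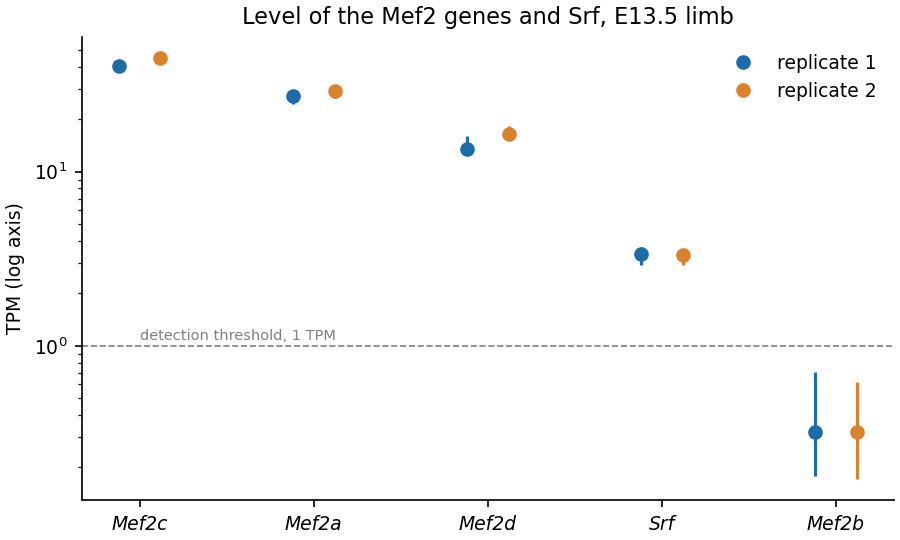
TPM of Mef2c, Mef2a, Mef2d, Srf and Mef2b on a log axis, 1 point per library, with vertical lines for the deposited credibility interval of each value. The order of the genes is the same in both libraries, from 40.5 and 44.6 TPM for Mef2c down to 0.32 for Mef2b, the one gene under the dashed line at 1 TPM.

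Each pair of genes was then compared through log2((TPM + 0.1)/(TPM + 0.1)) within each library. A ratio counted as past the spread if its sign did not change between libraries and its mean exceeded 2 times the SD between libraries of the 500 genes nearest in TPM, combined for both genes. This is a rule and not a significance test. All 10 pairs of members were past it, and 4 of the 7 cofactor pairs given below. The share of all gene pairs past it was not computed, so the count of 10 is not a trait of these genes. The smallest ratio was that of Mef2c to Mef2a, at 0.57 and 0.63 on the log2 scale (1.51-fold), against a limit of 0.28. Mef2a exceeded Mef2d by 1.00 and 0.82 on that scale (1.88-fold, limit 0.33). Mef2d exceeded Srf by 1.97 and 2.28 (4.36-fold, limit 0.91), and Srf exceeded Mef2b by 3.05 and 3.02 (8.19-fold, limit 1.72). The fold against Mef2b is on the scale with 0.1 TPM added, which understates it, and rests on the few reads of that gene: with 1 TPM added, the log2 ratio of Srf to Mef2b was 1.72 in place of 3.03. By this rule, the order Mef2c, Mef2a, Mef2d, Srf, Mef2b had no pair of neighbours that differed by less than their spread. That spread holds only differences between the libraries. An error of a gene that is the same in both, such as in its transcript length, is left out of it. The lengths used differ from those in GENCODE M21 for Srf, 4093 against 2616 nt, and for Mef2c.

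Agreement between the libraries was tested the other way round, gene by gene. The log2 ratio of replicate 2 over replicate 1 was taken from expected counts scaled to equal depth and set against 2 times the SD of the 500 genes of like count. None of the 5 members lay outside, where 4.21% of 17441 genes that reached 10 counts in both libraries did. Mef2b, with 8 and 10 counts, fell short of that minimum and was read against its nearest genes. The ratios were 0.05 for Mef2a, -0.10 for Mef2b, 0.13 for Mef2c, 0.13 for Mef2d and -0.05 for Srf. The ratio of Mef2d from TPM was larger, at 0.27, past the limit of 0.21 that was set from counts. No spread of TPM ratios was computed for this rule, so whether 0.27 is unusual on the TPM scale was not tested. The effective length deposited for Mef2d, which depends on its transcript mix, was 4163 nt in replicate 1 and 3841 nt in replicate 2.

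Transcripts were read from the deposited IsoPct, the percent of a gene's TPM assigned to each transcript. The tables use GENCODE M4, and exons were taken from the later release M21 on the same assembly by transcript identifier. For Mef2a 7 of 8 transcripts, for Mef2d all 7 and for Mef2b all 4 have the same length in both. None of the 3 Mef2c transcripts does, nor does the single one of Srf. Transcripts were called separated when their order was the same in both libraries and the credibility intervals of their TPM overlapped in neither.

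Mef2c was divided almost evenly between a pair of transcripts. Mef2c-202 held 48.7% in replicate 1 and 49.4% in replicate 2, at 19.7 and 22.0 TPM. Mef2c-203 held 46.6% and 45.3%, at 18.9 and 20.2 TPM. Their intervals overlapped, so the order of these transcripts was not resolved. The remaining 4.69% and 5.34% belonged to Mef2c-201.

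In M21, Mef2c-202 and Mef2c-203 start at different first exons, of 137 nt at chr13:83504240-83504376 and of 153 nt at chr13:83573622-83573774. The upstream first exon, used also by Mef2c-201, held 53.4% and 54.7% of Mef2c TPM, and the downstream one 46.6% and 45.3%. Mef2c-202 alone holds a 60-nt coding exon, the capitals of the Mef2c α1 sequence above, followed by α2. It lacks the β exon, which only Mef2c-203 holds. Mef2c-202 also runs 2605 nt further at its 3′ end. The exon of 60 nt was thus in 48.7% and 49.4% of Mef2c TPM and the β exon in 46.6% and 45.3%.

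All 3 quantified Mef2c transcripts hold α2 in M21 and none holds the whole α1 exon of 144 nt, so the share of α1 in Mef2c was not measured. The exon shares of Mef2c rest on the M21 structure. The lengths in the tables differ from it by 150 nt for Mef2c-202, -76 nt for Mef2c-203 and 108 nt for Mef2c-201. Mef2c-202 exceeds Mef2c-201 by 102 nt in the tables and by 60 nt in M21, so the exon that separates them in the quantified models may not be the same. M21 lists 31 transcripts for this gene.

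Mef2a was led by a single transcript. Mef2a-208 held 54.3% in replicate 1 and 52.9% in replicate 2, at 14.8 and 15.3 TPM, and was separated from the second, Mef2a-201, which held 23.8% and 22.0%. Mef2a-205, a model whose 3′ end is incomplete, held 18.2% and 16.8%. The other 5 transcripts took 4.02% or less each in either library, and Mef2a-204 and Mef2a-206 were listed at 0 in both.

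Mef2a-208 holds α1 and β, and Mef2a-201 holds α2 without β. Besides these exons, 3044 nt of the 3′ end are found in Mef2a-208 and not in Mef2a-201, so 156 of the 3200 nt that set it apart are coding. Among transcripts with either exon, α1 took 75.5% in replicate 1 and 73.8% in replicate 2, and α2 took 24.5% and 26.2%. These and the other exon shares sum the TPM of whole transcripts and are not counts of reads over an exon. The α2 share rested mainly on Mef2a-201, whose TPM intervals were 3.86 to 6.87 in replicate 1 and 3.41 to 7.54 in replicate 2. The β exon was in 68.7% and 66.8% of the TPM of transcripts that span it. Its only holder above 0 TPM was Mef2a-208, which also has the longer 3′ end. Mef2a-205 ends before the β exon and was not counted there. At the 5′ end, a non-coding exon used its shorter form of 53 nt in 79.0% and 76.0% and its form with 20 further nt in 18.2% and 20.0%.

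Mef2d was led by Mef2d-201, with 57.1% in replicate 1 and 45.95% in replicate 2, followed by Mef2d-204 with 30.4% and 36.5%. The transcripts were separated in both libraries, at 7.73 and 7.52 TPM against 4.12 and 5.98. The share of Mef2d-201 differed by -11.1 percentage points (replicate 2 minus replicate 1), within the limit of 13.7, which is 2 times the SD of such differences over 500 transcripts of genes of like count. The retained-intron model Mef2d-206 held 5.94% and 6.43%, from only 5.49 and 9.55 expected counts, and Mef2d-203 held 3.08% and 4.91%. The processed transcript Mef2d-205 held 1.89% and 3.23%, from 2.15 and 5.89 expected counts, and Mef2d-202 held 1.58% and 2.95%. Mef2d-207 was listed at 0.

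Mef2d-201 and Mef2d-204 hold the same α1 exon and neither holds β. They are set apart by their 3′ ends, 2156 nt of the final exon in Mef2d-201 and an unspliced stretch of 287 nt in Mef2d-204, of which 6 nt are coding, and by 44 nt at the 5′ end. The 307-nt exon that is spliced onward to the final exon was in 65.6% and 57.5% of the TPM that spans it. The antisense gene 1700113A16Rik overlaps the last 531 nt of Mef2d-201 and had 9.48 and 8.45 TPM. The use of strand in the counting is not given in the sources used here, and reads from Mef2d and its antisense partner cannot be fully told apart without it. Expected counts were 1174.44 and 1738.34 for Mef2d and 174.56 and 206.66 for 1700113A16Rik, with decimals that complete each other in each library. Some reads were thus divided between these genes, and the effect on the Mef2d values was not tested.

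The exons known from muscle were rare in Mef2d. The α1 exon took 98.3% in replicate 1 and 96.8% in replicate 2, and α2 took 1.68% and 3.25%, from 7.43 and 22.2 expected counts for its transcript Mef2d-202. The β exon was in 3.37% and 5.41%, by Mef2d-203 alone. In both libraries the α2 share of Mef2a was above that of Mef2d, and so was its β share. The order was Mef2a, Mef2c, Mef2d for β, although the value of Mef2c depends on the M21 structure. The distance between Mef2a and Mef2c depends on the denominator, since the β share of Mef2a was 53.6% of all its transcripts, against 46.0% for Mef2c.

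**Figure D2:**
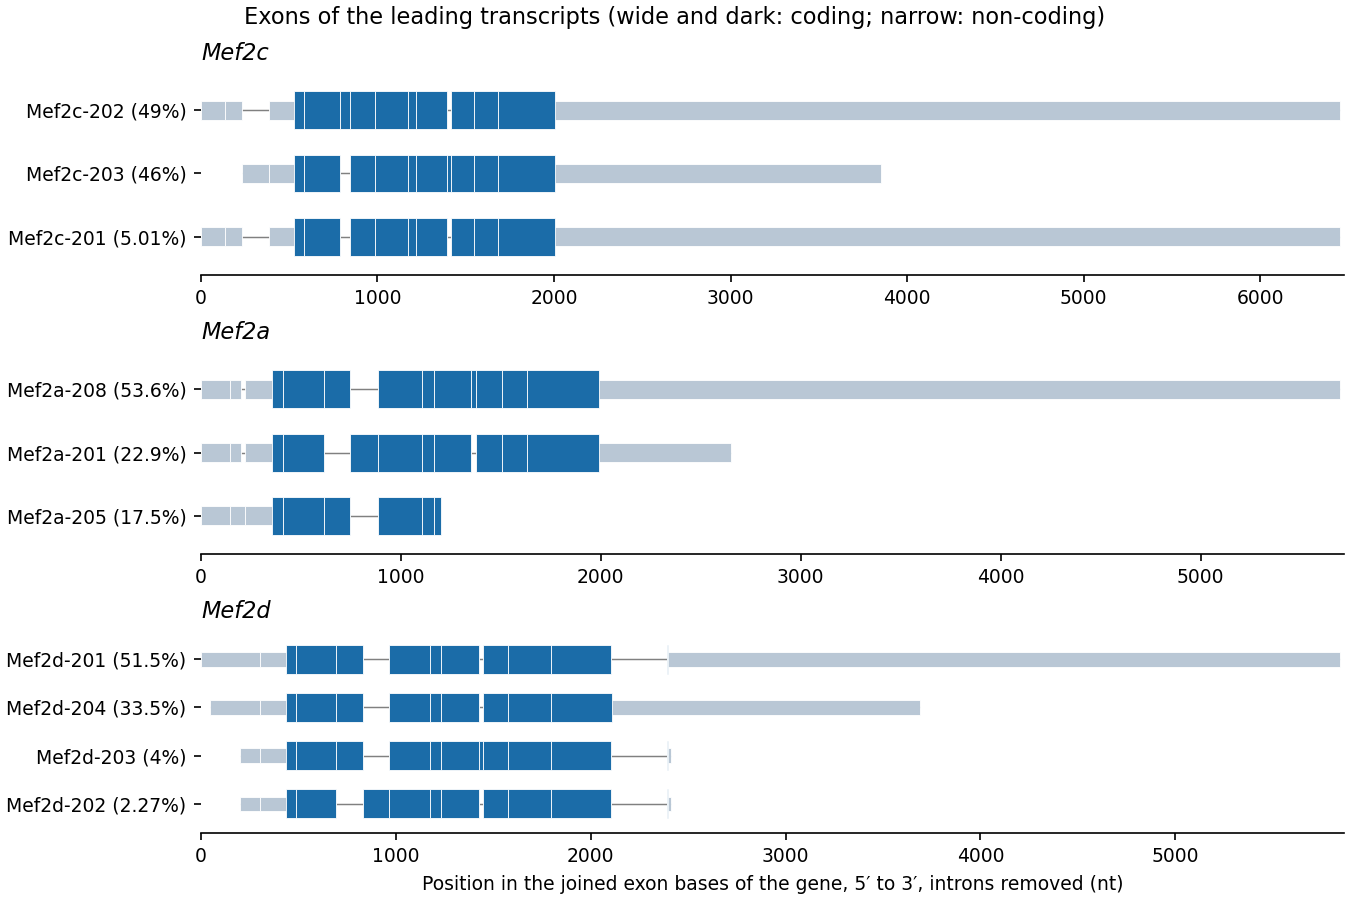
Exons of the Mef2c, Mef2a and Mef2d transcripts, drawn 5′ to 3′ on the joined exon bases of each gene with introns removed (nt). Wide dark boxes are coding, narrow boxes are non-coding, thin lines are bases left out, and the mean IsoPct of both libraries follows each name. The leading transcripts differ in short coding exons and in long 3′ ends.

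**Figure D3:**
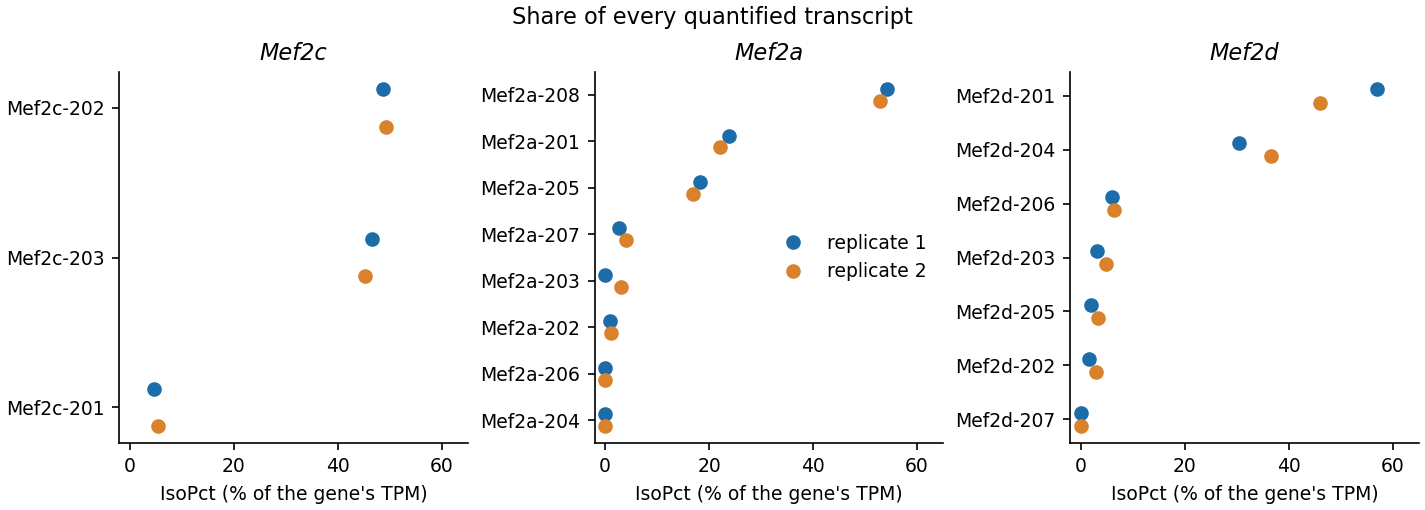
IsoPct of every quantified transcript of Mef2c, Mef2a and Mef2d, in percent of the gene's TPM, 1 point per library. Mef2c-202 and Mef2c-203 lie side by side near the middle of the range, while Mef2a-208, at 54.3% and 52.9%, stands clear of the other Mef2a transcripts.

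Mef2b and Srf gave little at this level. The 8 counts of Mef2b in replicate 1 were all assigned to Mef2b-203 and the 10 in replicate 2 all to Mef2b-201, so its transcript mix was not detectable at this depth. Srf has 1 transcript in the tables, 4093 nt long, where M21 lists 4 and gives 2616 nt for the same identifier. Across the 6782 genes of at least 10 TPM with more than 1 transcript, 94.5% had the same leading transcript in both libraries and 77.4% had it separated from the second. Mef2a, Mef2c and Mef2d all kept their leading transcript, and 2 of these 3, Mef2a and Mef2d, had it separated from the second. The median leading IsoPct of those genes was 67.9%, above the value of each of the 3 Mef2 genes, and 30.7% of genes had a lower one than Mef2a, 27.6% than Mef2d and 24.2% than Mef2c.

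**Figure D4:**
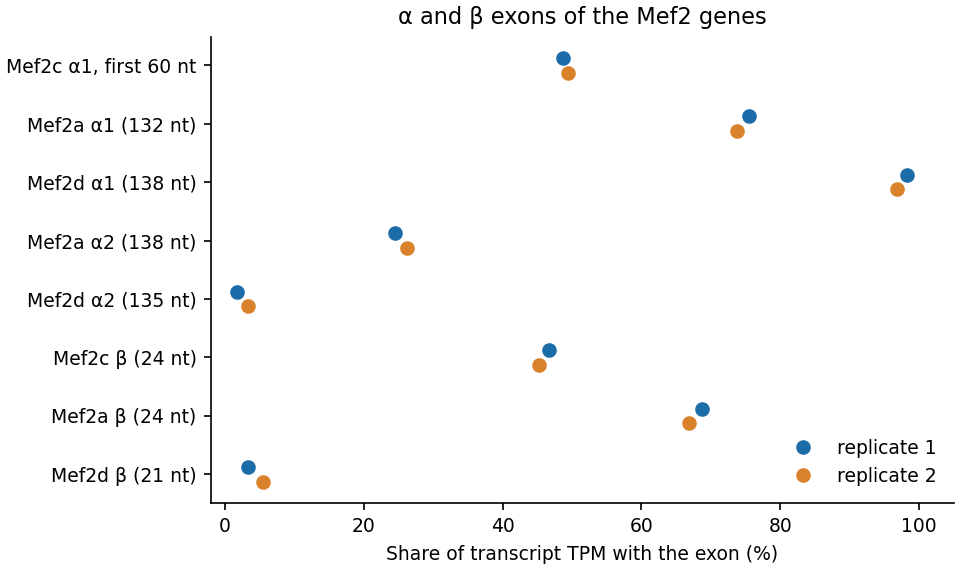
Share of transcript TPM with the α and β exons of Mef2c, Mef2a and Mef2d, in percent, 1 point per library. The Mef2c α1 point is its first 60 nt and not the whole exon, and Mef2c α2, held by all quantified Mef2c transcripts in M21, is not drawn. For α exons of Mef2a and Mef2d the denominator is transcripts with either exon, and otherwise transcripts that span the exon. The libraries lie within a few percentage points of each other for every exon, and Mef2d α2 and β lie near 0.

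Proteins known to regulate splicing of Mef2 exons were read beside these shares. Of 10 listed, 9 were detected, with a median of 50.5 TPM, where the median of all detected genes was 17.2. Ptbp1, a repressor of muscle and neuronal exons, led at 288 and 305 TPM, and exceeded its neuronal paralog Ptbp2, at 48.4 and 47.7, 6.16-fold. Mbnl1, which promotes adult muscle splicing, had 73.0 and 74.0 TPM, and Celf1, known as its opponent, 66.4 and 74.1. Rbfox2, of the family known to promote Mef2 muscle exons, had 38.6 and 42.4 TPM and exceeded Rbfox1, at 2.23 and 3.08, 14.9-fold, while Rbfox3, a neuronal member, was not detected at 0.98 and 0.77. Whether these levels bear on the exon shares was not tested.

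Every listed corepressor, coactivator and activating enzyme of MEF2 proteins was detected. All 5 class IIa deacetylases and other corepressors were, with a median of 21.8 TPM. Hdac5 was the highest at 52.4 and 58.1 TPM, 2.52-fold above Hdac4 and past the spread. Hdac7, with 27.1 and 28.9 TPM, was 1.28-fold above Hdac4, with 20.4 and 23.3, which is within the spread but past it with posterior mean TPM (0.38 on the log2 scale) or with 200 neighbouring genes (0.36). Both ratios depend on the division by length: from expected counts, Hdac5 over Hdac4 was -0.078 and Hdac7 over Hdac4 was -0.80 on the log2 scale. Hdac9, a class IIa member studied in muscle, was the lowest at 3.30 and 3.46. All 9 coactivators and activating enzymes were detected, and their median was 40.0 TPM. Mapk7, the ERK5 kinase, was highest at 72.5 in both libraries, followed by the calcineurin catalytic subunits Ppp3ca at 57.0 and 54.1 and Ppp3cb at 49.9 and 49.4. The acetyltransferase Ep300 was the lowest at 12.0 and 11.6. The class IIa corepressors and the coactivators both held genes above and below Mef2c.

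Of the 7 genes listed as SRF cofactors, 6 had a higher TPM than Srf in both libraries. Of the myocardin-related list 3 of 4 were detected. Mkl1 (now Mrtfa) had 18.4 and 21.4 TPM and Mkl2 (now Mrtfb) 19.9 and 19.1, and their ratio was within the spread. Mamstr, listed there but known as an activator of MEF2, had 9.49 in both libraries. Myocd, the cofactor of heart and smooth muscle, was not detected at 0.21 and 0.43. All 3 ternary complex factors were detected, with Elk3 at 32.5 and 31.5 TPM, 2.17-fold above Elk1 at 14.7 in both libraries, and Elk4 at 14.8 and 16.7 within the spread of Elk1.

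Known target genes were then read as lists. Of 10 muscle targets of MEF2, 9 were detected, with a median of 7.21 TPM. Des, the muscle intermediate filament, led at 43.1 and 46.6, ahead of the oxidase subunit Cox6a2 at 23.3 and 20.9 and the kinase Srpk3 at 19.8 and 21.5, and the sarcomere repair gene Xirp1 was below detection at 0.59 and 0.87. Of the cartilage targets of MEF2C, the osteogenic factor Runx2 had 12.3 and 12.4 TPM, and Col10a1, the collagen of hypertrophic chondrocytes, 1.36 and 3.61. Col10a1 was low in both libraries and more than 2 times as high in replicate 2, while Runx2 differed little.

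All 15 actin and cytoskeletal targets of SRF were detected, with a median of 232 TPM. The cytoplasmic actins Actb, at 5682 and 5792, and Actg1, at 2266 and 2193, led, followed by the cardiac actin of embryonic muscle Actc1 at 692 and 686. The lowest was Cnn1, a smooth muscle calponin, at 2.50 and 1.26. Of 7 immediate early targets 5 were detected, with a median of 6.82 TPM over the list. Ier2 led at 60.6 and 59.8, then Mcl1 at 35.5 and 34.5 and Egr1 at 7.57 and 8.68, while Egr3 had 0.26 and 0.14.

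**Figure D5:**
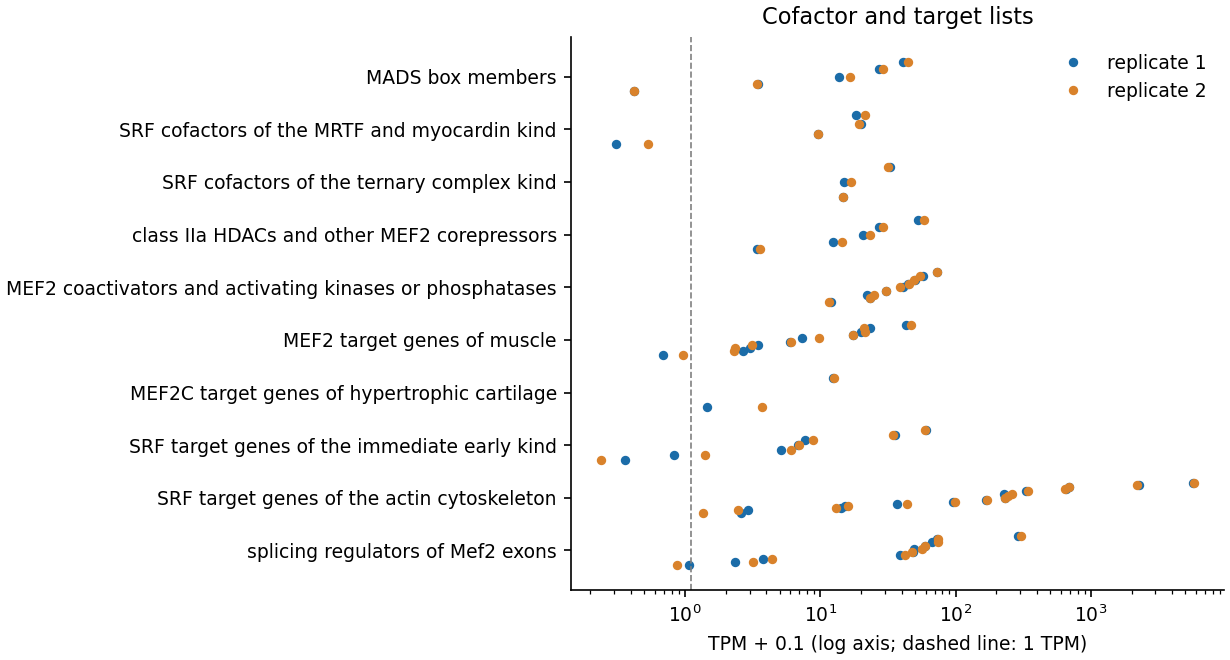
TPM + 0.1 on a log axis for each gene of the member, cofactor and target lists, 1 dot per gene and library, with a dashed line at 1 TPM. The actin cytoskeleton list reaches furthest to the right, to 5792 TPM for Actb, and genes left of the line include Mef2b, Myocd and Egr3.

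The labelled tissue was checked by markers of the cell types in which these factors are known to work. All 6 skeletal muscle markers were detected, summing to 1325 and 1374 TPM, with Myog at 142 and 158. All 5 chondrocyte markers were, summing to 1078 and 1171, and all 4 endothelial markers, summing to 77.4 and 80.4. The 5 smooth muscle and pericyte markers summed to 299 and 308 TPM, led by Acta2 at 231 and 232, and 4 of them were detected. Myh11, which defines smooth muscle, was not, at 0.28 and 0.32. All 4 neuronal and all 4 leukocyte markers were detected, summing to at most 39.3 and 86.4 TPM. None of the 3 B lymphocyte markers was, with sums of 0.75 and 0.40 TPM and Pax5 at 0 in both libraries, beside the low Mef2b. The share of each cell type in the level of any member was not tested.

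Promoter windows of the members were searched for the sites these factors bind, the CArG box and the MEF2 site, each in its usual 10-base form, which reads alike on both strands. The windows, from RefSeq on GRCm38.p6, run from 250 bases before to 50 after a gene's start. The Srf window on chromosome 17 held a pair of CArG boxes, starting 82 and 62 bases before the start, and the other members held none. They are printed with 10 bases on either side and the box in capitals (chr17:46556235-46556244 and chr17:46556215-46556224, - strand).
Srf upstream box: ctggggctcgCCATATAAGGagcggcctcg
Srf downstream box: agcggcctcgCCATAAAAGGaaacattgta
Such a box was found in 1.63% of the 32851 windows. The Mef2a window held a MEF2 site at chr7:67372851-67372860 (- strand) across the start, as did 3.19% of all windows.
Mef2a site: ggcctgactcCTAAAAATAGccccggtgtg
No window of Mef2b, Mef2c or Mef2d held either. Of the 12 genes of the SRF actin list with a window 7 held a CArG box, against 1.81% of all genes with a window, and these genes are listed as SRF targets partly because such boxes are known there. Of the immediate early targets with a window 1 of 4 held one, and of each list of SRF cofactors 0 of 3. Of the 7 muscle targets of MEF2 with a window 1 held a MEF2 site, against 3.70% of all genes, and 1 held a CArG box. A MEF2 site was also found in 1 of 3 myocardin-related cofactors, 1 of 5 corepressors and 1 of 12 SRF actin targets. No gene of the remaining cofactor, target and splicing lists held one. A match is a description of the sequence and says nothing of binding in these limbs.

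Other genes overlap the members in the annotation. Lysmd4 lies on the opposite strand across part of Mef2a and had 13.1 and 14.9 TPM. The use of strand is not given here either. The expected counts of Lysmd4, 826 and 1238, and of Mef2a, 2117 and 2950, were whole, unlike those of Mef2d. Borcs8 overlaps the annotated range of Mef2b on the same strand and had 46.5 and 42.5 TPM, far above Mef2b. Borcs8 ends at chr8:70147319, while every quantified Mef2b transcript starts at chr8:70152778 or later, so it overlaps none of them. Gm26904, opposite to Srf, was listed at 0. No gene is named here for varying together with a member, because 2 libraries of 1 condition define no pattern.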

How the data were processed

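A gene table and a transcript table were used for each of the 2 limb libraries. Text notes deposited beside the tables name mm10 and GENCODE M4, and the sources used here do not give the aligner or quantifier. The expected counts deposited by the authors are estimates that need not be whole, with reads that match several transcripts divided among them. The deposited TPM values divide these counts by effective length and scale them to a fixed total, and the deposited IsoPct is the percent that a transcript makes up of the TPM of its gene, per the file headers. The libraries held 31253053 and 42301448 expected counts on Ensembl genes, and spike-ins a further 2.11% and 2.07%.

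Expected counts were rounded and scaled by TMM in edgeR 4.0.16 (DESeq2 1.42.0 size factors as an alternative), with 0.5 added before log2; all else was computed in Python 3.11.15. Pair ratios used TPM with 0.1 added. Exon shares sum transcript TPM over exons of GENCODE M21, and all internal exons between 5% and 95% in a library were taken. Exons were aligned with Biopython 1.88, and 1 exon sequence is not reported here. Symbols matched 42462 genes. The rule for names took all 5 members, their transcripts of at least 10 IsoPct, the 3 highest and the lowest gene of each list, the genes of 7 cofactor pairs, and overlapping genes. Further list genes were named after their values were seen, where they bear on a count. The members and lists were chosen with earlier results of these data known. The spread of IsoPct differences was added after seeing the data.

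Both rules were tested on simulated data over 17406 genes. The ratio between libraries called 98% of genes changed 1.5-fold, 100% of those changed 2-fold and 2.38% of unchanged ones. The pair rule called 0% of equal pairs and 100% of those 1.5-fold apart. Changed genes and pairs were drawn only from genes with far more counts than Mef2b, with a fixed, small noise added. The real limits of pairs with Srf or Mef2b were 0.89 or more on the log2 scale, so these rates do not carry over to them.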

Additional observations from a re-analysis of the deposited data

How the results depend on the processing

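Of 265 values recomputed under other settings, 18 reversed a direction, changed a call, or moved a value with no test by more than the SD between libraries or a count by over 1.5 times. For levels, IsoPct and exon shares, leaving out a replicate could not count as a move. With 2 libraries, each value always lies within the SD of their mean. Those settings are part of the 265 but are no check. All 10 ratios between members kept their call in each of their 6 alternatives, but not their size: Srf over Mef2b was 1.72 with 1 TPM added and 5.09 from counts, and Mef2c over Mef2a was 1.02 from counts. Posterior mean TPM gave 0.41 for Mef2b and 3.27 for Srf. Expected counts, which keep the effect of length, reversed Mkl1 over Mkl2 to -0.37, Elk4 over Elk1 to -0.49, Hdac5 over Hdac4 to -0.078 and Hdac7 over Hdac4 to -0.80 on the log2 scale. Mkl1 over Mkl2 ranged from -0.11 without replicate 2 to 0.16 without replicate 1. Hdac7 over Hdac4 passed the spread with posterior mean TPM (0.38) and with 200 neighbouring genes (0.36). By TPM, the ratio of Mef2d between libraries was 0.27 and past the limit set from counts, while no limit was computed from TPM. At a threshold of 5 TPM, 3 members, 1 cartilage target, 6 muscle targets, 13 actin targets, 7 splicing regulators and 4 corepressors were detected, and the counts of the other lists did not change.

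Among protein-coding transcripts Mef2a-208 held 56.0% and the 53-nt exon of Mef2a 80.0%. The β exon of Mef2a was in 53.6% with all transcripts in the denominator and in 70.1% with transcripts of at least 1%. A 185-nt exon of Mef2d, included in 93.7%, was in 92.0% by posterior means, 100% among protein-coding transcripts and 91.3% of all. The cause of these shifts was not tested, beyond the change of denominator or length itself. No paired analysis was possible because there is 1 group. Depth limits Mef2b, with 8 and 10 counts, and the rare exons of Mef2d. The number of libraries limits every spread given.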
